A study of Mus musculus with 8 samples.

Results

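The 40 genes described here carry glucose through the cell, from the glucose transporters and hexokinases through glycolysis to lactate export, with the side steps that admit pyruvate to mitochondria and store glucose as glycogen. They were chosen by name for their place in these pathways, with earlier results of these data known. Of several gene models of a symbol, the one with the highest mean FPKM was taken. All 40 have a gene model among the 54419 in the deposited expression table, and 39 of them reached 1 FPKM in 2 or more of the 8 libraries, the filter that left 11146 named models for testing. FPKM counts sequenced fragments relative to gene length and library depth, so levels of different genes can be set side by side. The member left out was Eno2, the enolase of neurons, which was at 0.222 to 0.409 FPKM in 7 libraries and reached 2.09 FPKM only in the library labelled OGD_PARP14 replicate 2. Just inside the filter lay Slc2a3, at 0.558 to 1.35 FPKM, with 2 libraries above 1 FPKM, OGD_PARP14 replicate 2 and OGD_Con replicate 1. It thus passed only through libraries labelled with oxygen-glucose deprivation, so its higher level in those is not independent of the filter.

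As background, glycolysis splits glucose into pyruvate without oxygen and yields ATP, and lactate dehydrogenase turns the pyruvate into lactate so that the pathway can go on. When oxygen is short, the transcription factor HIF-1 binds short DNA elements near many of these genes and raises their transcription, while pyruvate dehydrogenase kinases close the entry of pyruvate into the citrate cycle. Microglia, the resident macrophages of the brain, are known to lean on glycolysis when activated.

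The cells were primary microglia from brains of C57BL/6 mice, aged postnatal day 2 in the labels and 1 to 2 days in the growth protocol, cultured with serum. There were 4 groups of 2 libraries. By their labels, OGD_PARP14 libraries came from cells given an activation plasmid for the gene Parp14 (ACT-PARP14) and 6 h of oxygen-glucose deprivation (OGD), which takes away both oxygen and glucose as in a stroke. OGD_Con libraries came from cells given the control plasmid (ACT-Con) and OGD, PARP14 libraries from cells with the activation plasmid, and Con libraries from cells with the control plasmid. Every group thus shares a 24 h transfection. The protocol text mentions OGD for all samples, but the titles name it only for 4, and the groups follow the titles. The series text speaks of 2 independent experiments without assigning the libraries to them, so the p-values reflect how much the libraries of a group differ, which may be a technical spread only.

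The libraries held an estimated 13.4 M to 17.0 M fragments each. The summed level of 8 microglial markers was 618 and 1275 FPKM in OGD_PARP14, 604 and 630.1 FPKM in OGD_Con, 759 and 756 FPKM in PARP14 and 755 and 757 FPKM in Con. Summed markers of astrocytes, neurons, oligodendrocytes, endothelium, fibroblasts and blood leukocytes were at 11.1 FPKM or less per list in every library. In bulk RNA of this kind, fewer cells of a type and less RNA per cell cannot be told apart. Egln3, an oxygen sensor known to be induced by HIF, was at 33.8 and 1.08 FPKM in OGD_PARP14 and at 32.5 and 37.7 FPKM in OGD_Con, against 0.765 and 0.708 FPKM in PARP14 and 0.801 and 0.797 FPKM in Con. The library labelled OGD_PARP14 replicate 2 therefore lacked the OGD level of Egln3, and it stood apart over all tested models as well, with correlations of 0.880 to 0.903 with the other libraries, which correlated at 0.946 to 0.986 among themselves. The model that holds the Parp14 transcripts, which carries the name of a predicted gene and overlaps Dtx3l, was at 55.8 and 54.6 FPKM in OGD_PARP14, 12.5 and 53.7 FPKM in OGD_Con, 12.2 and 11.5 FPKM in PARP14 and 61.4 and 50.7 FPKM in Con. The libraries labelled PARP14 thus held less of the targeted gene than those labelled Con, and OGD_Con replicate 1 held about as little as they did. The plasmid in a library is therefore named below only as its label gives it. Because of the library that stood apart, OGD_Con was compared with Con in a fit of the 7 other libraries, and values from the fit of all 8 are given beside it.

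Transcripts of the pathway were higher in the libraries labelled OGD_Con than in those labelled Con, from glucose uptake to lactate export. Of the 39 members, 23 rose in OGD_Con against Con and 0 fell (limma on log2(FPKM + 1), Benjamini-Hochberg adjusted p under 0.05 over all tested models), where 10.7% of all tested models rose and 12.4% fell. An unadjusted p under 0.05 in limma was found for 27 members, and for 4329 of the 11146 tested models. The median difference of the members was 0.54 on the log2 scale, against -0.02 over all tested models. Both OGD_Con libraries lay above both Con libraries for 29 members, below for 2 and overlapped for 8, while over all models 30.7% lay above and 35.8% below. The 29 include Slc2a3, which passed the filter only through libraries labelled OGD. Summed over the 18 tested enzymes from hexokinase to lactate dehydrogenase, the transcripts made up 0.648% and 0.700% of all FPKM in OGD_Con, against 0.356% and 0.383% in Con. The level of Gapdh, which is among these enzymes, is uncertain, as described below.

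The number of rises differed from step to step. Of the tested members of each step, 2 of 3 glucose transporters, 1 of 3 hexokinases, 6 of 7 enzymes of upper glycolysis and 1 of 3 PFKFB regulators rose. Further down, 6 of 6 enzymes of lower glycolysis, 3 of 4 lactate genes, 3 of 7 genes of pyruvate entry and 1 of 6 glycogen genes rose. The glycogen count takes Gys1 from a joined model that cannot be read, as described below.

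With 2 libraries a group, single libraries decided some calls. For the fits below with 1 library left out, the share of all tested models called was not set beside the counts. Those counts therefore cannot separate a change in the members from one over all models. In the fit of all 8 libraries 0 members passed in limma, and 18 had an unadjusted p under 0.05. The smallest adjusted p was 0.0722, for Mpc1. Over all 11146 tested models, 0.161% rose, 0.108% fell and 2144 had an unadjusted p under 0.05 in that fit. Leaving out OGD_Con replicate 1, OGD_Con replicate 2, Con replicate 1 or Con replicate 2 left 20, 14, 14 and 15 members called. The 13 members Slc2a1, Hk2, Gpi1, Pfkl, Tpi1, Pfkfb3, Pgam1, Eno1, Ldha, Slc16a1, Slc16a3, Pdk1 and Pgm1 passed in each of these.

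**Figure D1:**
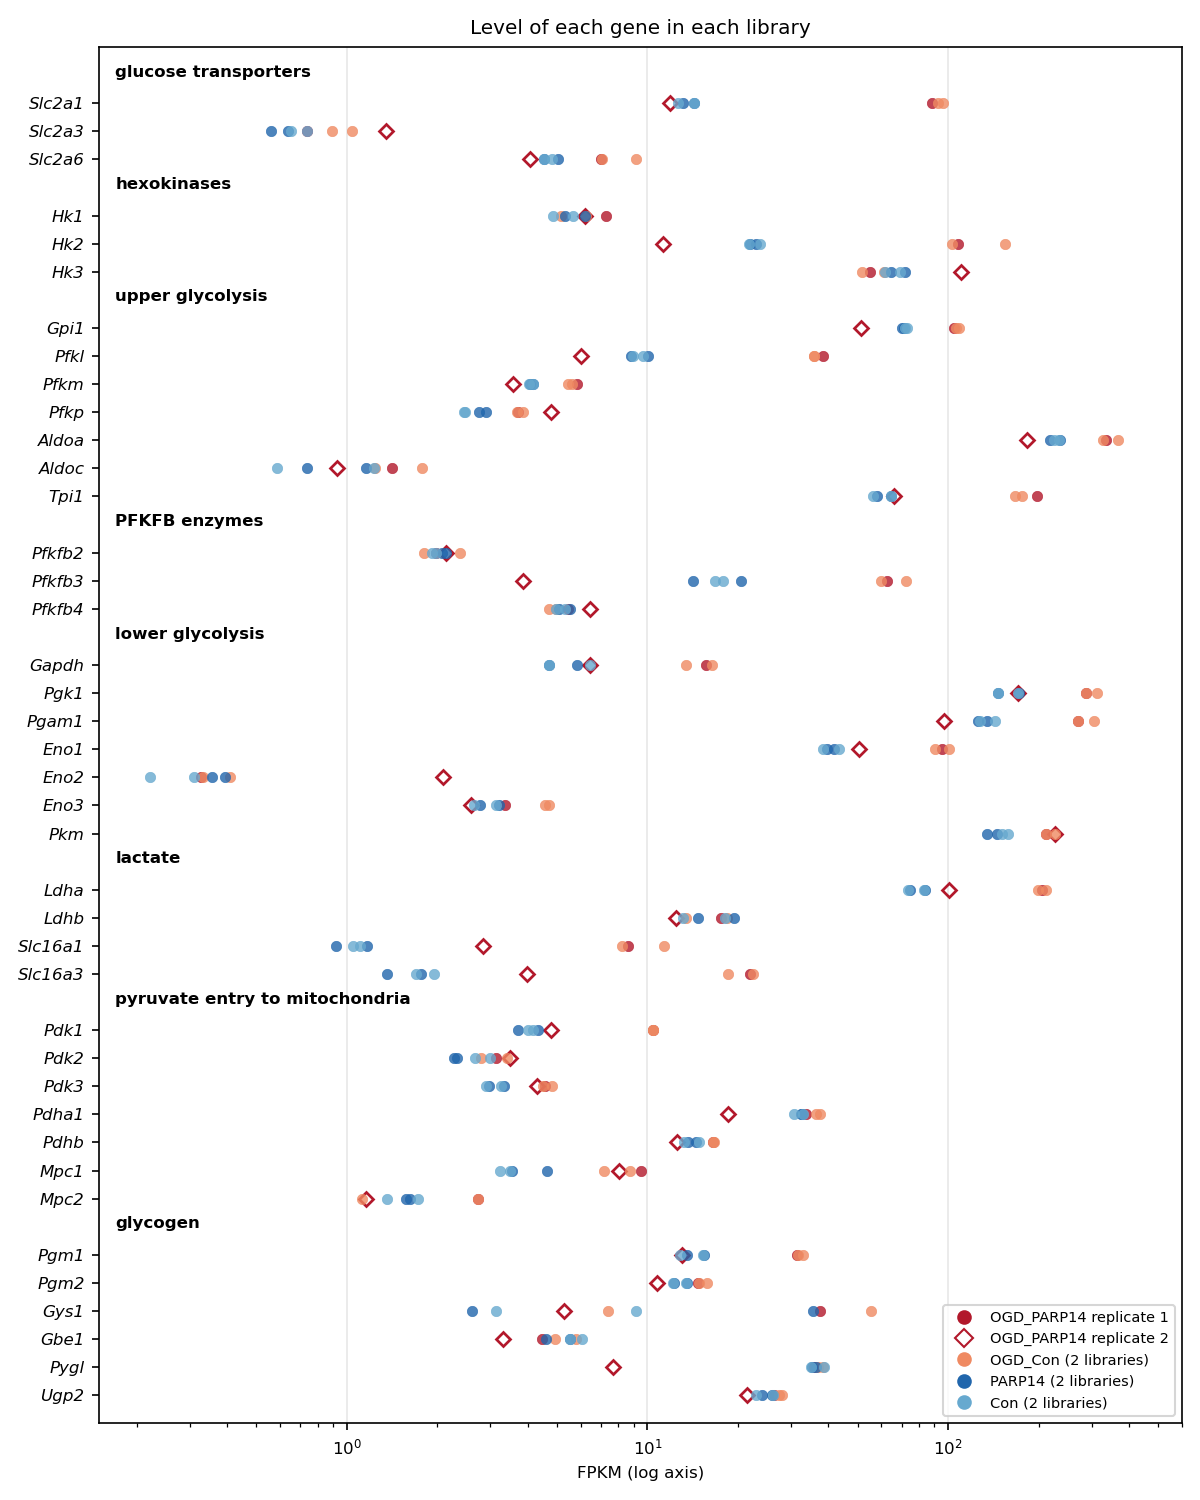
Level of each of the 40 genes in each of the 8 libraries, in FPKM on a log axis, by pathway step. OGD_Con and OGD_PARP14 replicate 1 lie to the right of the PARP14 and Con libraries for genes such as Slc2a1, Hk2 and Slc16a3, and the open diamonds of OGD_PARP14 replicate 2 lie at or left of the libraries without OGD for Slc2a1, Hk2, Pfkl and Pfkfb3.

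Glucose enters the cell through facilitative transporters. Slc2a1, which encodes GLUT1, the main carrier for basal uptake, was at 92.5 and 95.9 FPKM in OGD_Con, against 14.3 and 12.6 FPKM in Con. It was at 88.2 and 11.9 FPKM in OGD_PARP14, against 14.3 and 13.1 FPKM in PARP14. The 3 OGD libraries other than OGD_PARP14 replicate 2 lay far above all 4 libraries without OGD, and that replicate lay below them. The log2 difference of OGD_Con against Con was 2.72 (SE 0.09, adjusted p = 0.000424), a 6.60-fold rise in FPKM + 1. Slc2a6, a transporter of lysosomal membranes in macrophages, had 7.03 and 9.16 FPKM in OGD_Con, against 4.52 and 4.80 FPKM in Con, with a log2 difference of 0.67 (SE 0.13, adjusted p = 0.0237). Its adjusted p was 0.0691 without OGD_Con replicate 2, 0.106 without Con replicate 1 and 0.0801 without Con replicate 2. Slc2a3, the high-affinity GLUT3, was near the limit of the filter at 1.04 and 0.896 FPKM in OGD_Con, against 0.734 and 0.653 FPKM in Con, and did not pass (log2 difference 0.22, SE 0.08, adjusted p = 0.106). With OGD, Slc2a1 thus made up 92.0% and 90.5% of the summed FPKM of these transporters in OGD_Con, against 73.1% and 69.8% in Con.

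The gene model of Slc2a1 lies at chr4:119108711-119137983 on the plus strand, in the coordinates deposited. HIF-1 binds the core letters ACGTG or GCGTG, so the 250 bases before each RefSeq transcription start (RefSeq promoter windows on GRCm38.p6) were searched for both on both strands. A minus-strand match reads CACGT or CACGC, and overlapping matches were counted as 1 core. Such a core occurred in the windows of 31 of the 39 members found in that table (79.5%) and in 38.6% of all 32851 windows. Among 6972 windows with a GC content between the quartiles of the members' windows, the share was 55.2%. The median GC content was 61.6% in the members' windows and 52.4% in all windows. The share was 82.6% among the 23 members that rose in OGD_Con and 80% among 15 that were tested and did not pass. For 2 or more cores these shares were 52.2% and 33.3%, against 22.3% of the 6972 windows. The windows also differed in composition. The median GC content was 64% for the 23, 60.4% for the 15 and 60% for the 6972. The median number of CG letter pairs was 17, 11 and 14, and its part in the shares was not tested. Gpi1, Aldoa, Tpi1 and Pkm rose and Hk1 and Gbe1 did not pass, each with 0 cores. Only the start nearest the deposited model was read for a member, while RefSeq lists 3 starts for Aldoa, 2 for Pkm and 2 for Hk1. Ugp2, which did not pass, had 5. Gys1, also with 0 cores, is counted among the 15 by the joined model described below, which starts at chr7:45445607 and did not pass. Its window, however, ends at chr7:45434838, next to the model that carries the name Gys1 alone, which starts at chr7:45434844 and rose. By that model Gys1 would belong with the genes that rose, so the shares of both sets depend on this choice. A match is a description of the letters and not a bound site. The window of Slc2a1, the transporter with the largest rise, spans chr4:119108495-119108744 on the plus strand and holds 2 cores, shown in capitals from 5′ to 3′.
Slc2a1: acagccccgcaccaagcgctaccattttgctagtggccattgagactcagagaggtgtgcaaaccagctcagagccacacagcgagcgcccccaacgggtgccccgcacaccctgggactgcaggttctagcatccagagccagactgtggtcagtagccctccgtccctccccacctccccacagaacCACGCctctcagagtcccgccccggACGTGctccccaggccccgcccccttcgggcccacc

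Hexokinases trap glucose in the cell as glucose 6-phosphate, and their isoforms parted under OGD. Hk2, the inducible isoform that binds mitochondria, was at 103 and 155 FPKM in OGD_Con, against 23.7 and 21.7 FPKM in Con, a log2 difference of 2.42 (SE 0.20, adjusted p = 0.00306) or 5.36-fold. It was at 108 and 11.3 FPKM in OGD_PARP14, against 22.0 and 22.9 FPKM in PARP14. All 3 OGD libraries other than OGD_PARP14 replicate 2 lay above every library without OGD, and that replicate had the lowest level of the 8. Hk1, the housekeeping isoform, was at 5.16 and 6.24 FPKM in OGD_Con, against 5.66 and 4.85 FPKM in Con, and the groups overlapped (log2 difference 0.10, 95% interval -0.22 to 0.42, adjusted p = 0.606). Hk3, the isoform of myeloid cells, was at 51.8 and 61.1 FPKM in OGD_Con, against 61.6 and 69.1 FPKM in Con. Both OGD_Con libraries lay below both Con libraries for Hk3, but the difference did not pass the test (log2 difference -0.21, 95% interval -0.51 to 0.09, adjusted p = 0.254).

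The leading hexokinase transcript therefore differed between the conditions. Hk2 made up 64.4% and 69.6% of the summed hexokinase FPKM in OGD_Con, against 26.1% and 22.7% in Con. Hk3 made up 32.4% and 27.5% in OGD_Con, against 67.7% and 72.2% in Con. In the library labelled OGD_PARP14 replicate 2, Hk3 stood at 111 FPKM, above every other library, and held 86.4% of the sum.

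The upstream window of Hk2 is shown because it was the only hexokinase gene that rose. The Hk2 model lies at chr6:82725025-82774454 on the minus strand, and its window at chr6:82774455-82774704 (minus strand, GRCm38.p6) holds 2 cores, in capitals.
Hk2: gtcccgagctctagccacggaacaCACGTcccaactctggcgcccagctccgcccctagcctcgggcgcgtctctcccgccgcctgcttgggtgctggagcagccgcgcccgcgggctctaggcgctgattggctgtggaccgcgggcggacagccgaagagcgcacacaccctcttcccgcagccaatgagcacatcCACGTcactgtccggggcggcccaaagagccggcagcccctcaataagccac

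Upper glycolysis turns glucose 6-phosphate into triose phosphates, and the isoforms again moved by unequal amounts. Pfkl, the liver-type phosphofructokinase of the committed step, was at 35.8 and 35.9 FPKM in OGD_Con, against 8.96 and 9.66 FPKM in Con, with a log2 difference of 1.84 (SE 0.09, adjusted p = 0.00102). It was at 38.4 and 6.02 FPKM in OGD_PARP14, against 8.85 and 10.0 FPKM in PARP14. The groups OGD_Con and Con were far apart, and OGD_PARP14 replicate 2 again had the lowest level. Its muscle-type and platelet-type relatives Pfkm and Pfkp rose less, with log2 differences of 0.36 (SE 0.07, adjusted p = 0.0214) and 0.46 (SE 0.07, adjusted p = 0.0126). The adjusted p of Pfkm was 0.0656 without OGD_Con replicate 1, 0.0960 without OGD_Con replicate 2, 0.0988 without Con replicate 1 and 0.0771 without Con replicate 2. That of Pfkp was 0.0674 without OGD_Con replicate 2, 0.0649 without Con replicate 1 and 0.0609 without Con replicate 2. Pfkl made up 79.7% and 79.1% of the summed phosphofructokinase FPKM in OGD_Con, against 57.9% and 59.4% in Con.

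Tpi1, which interconverts the triose phosphates, was at 177 and 167 FPKM in OGD_Con, against 56.2 and 64.7 FPKM in Con. The groups did not overlap, and the log2 difference was 1.49 (SE 0.10, adjusted p = 0.00222). Gpi1, the glucose 6-phosphate isomerase, had 108 and 106 FPKM in OGD_Con, against 71.9 and 72.8 FPKM in Con, a smaller difference of 0.56 (SE 0.06, adjusted p = 0.00680) with little spread. Aldoa, the main aldolase, was one of the most abundant members at 327 and 368 FPKM in OGD_Con, against 226 and 235 FPKM in Con, a log2 difference of 0.59 (SE 0.09, adjusted p = 0.0140). The adjusted p of Aldoa was 0.0655 without OGD_Con replicate 2, 0.0749 without Con replicate 1 and 0.0587 without Con replicate 2. Aldoc, the brain-type aldolase, was at 1.24 and 1.78 FPKM in OGD_Con, against 0.584 and 1.23 FPKM in Con, and did not pass (log2 difference 0.41, SE 0.21, adjusted p = 0.221).

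PFKFB enzymes make and break fructose 2,6-bisphosphate, the strongest activator of phosphofructokinase. Pfkfb3, the isoform with the highest kinase activity, was at 60.0 and 72.2 FPKM in OGD_Con, against 16.8 and 17.8 FPKM in Con. It was at 62.9 and 3.85 FPKM in OGD_PARP14, against 20.5 and 14.2 FPKM in PARP14. The OGD_Con libraries and OGD_PARP14 replicate 1 were above all libraries without OGD, and OGD_PARP14 replicate 2 was below them all. The log2 difference of OGD_Con against Con was 1.87 (SE 0.19, adjusted p = 0.00508). Pfkfb4, which is also known as a HIF target, was at 4.98 and 4.71 FPKM in OGD_Con, against 4.98 and 5.31 FPKM in Con, with a log2 difference of -0.07 (95% interval -0.27 to 0.13, adjusted p = 0.538). Pfkfb2, the heart-type isoform, was at 1.80 and 2.38 FPKM in OGD_Con, against 1.99 and 1.92 FPKM in Con, and the groups overlapped. Within the family, Pfkfb3 made up 89.8% and 91.1% of the summed FPKM in OGD_Con, against 70.7% and 71.2% in Con.

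**Figure D2:**
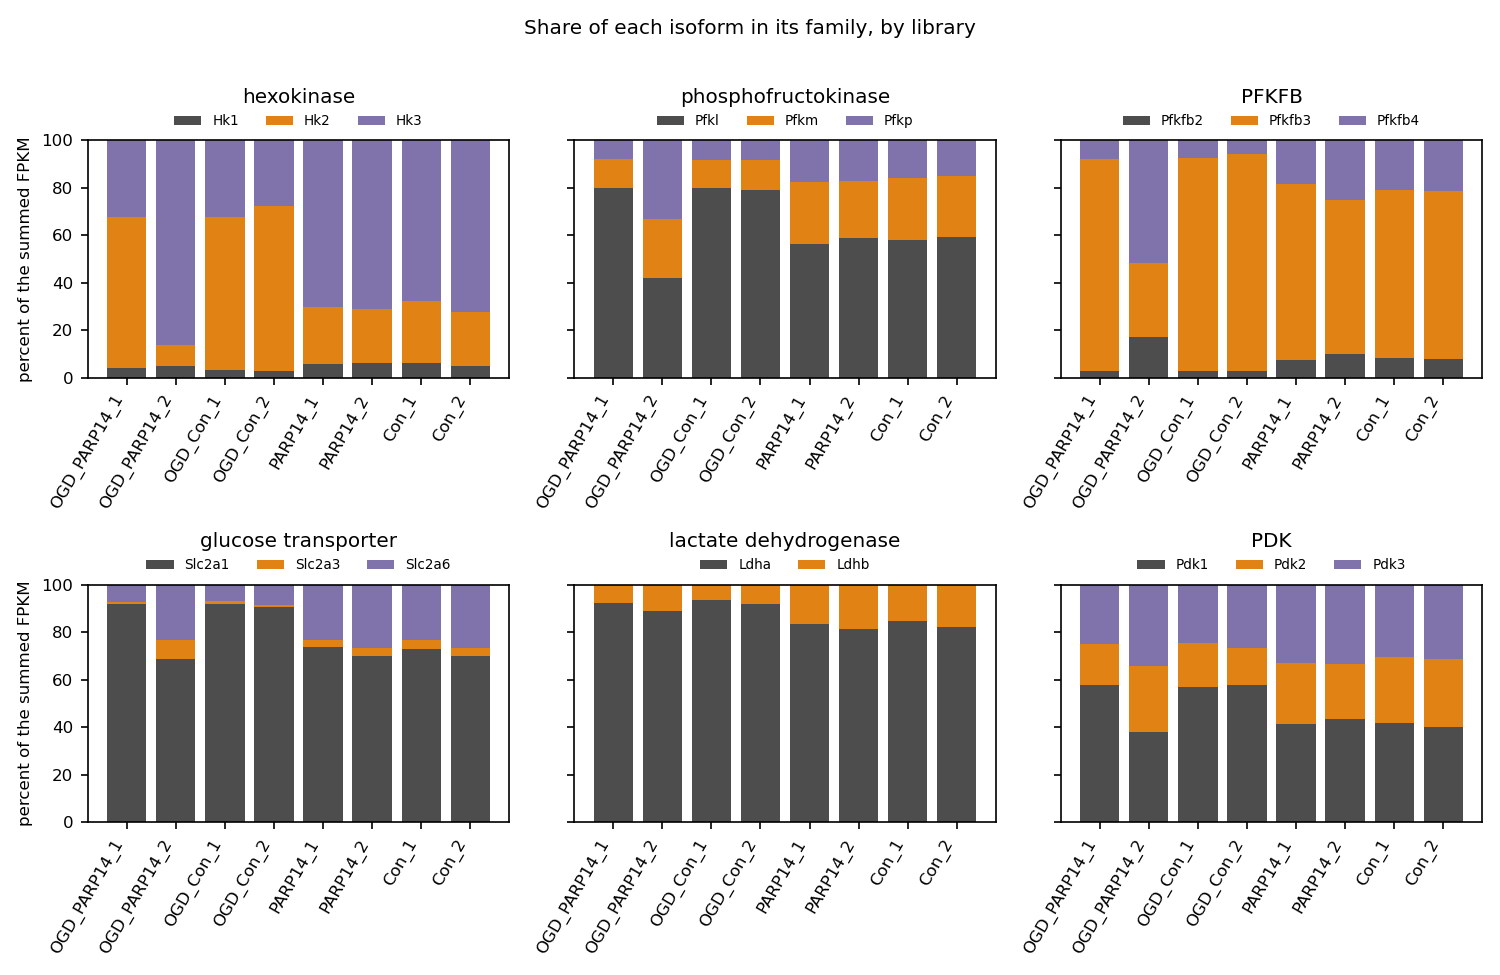
Share of each isoform in the summed FPKM of its family, in percent, with a stacked bar for each of the 8 libraries and a panel for each of 6 families. Hk2, Pfkl, Pfkfb3 and Slc2a1 take a larger share in OGD_Con and OGD_PARP14 replicate 1 than in PARP14 and Con, for Hk2 64.4% and 69.6% in OGD_Con against 26.1% and 22.7% in Con, and OGD_PARP14 replicate 2 does not share this.

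The 6 tested enzymes of lower glycolysis, which harvest ATP from triose phosphate and end at pyruvate, all rose. Eno1, the ubiquitous enolase, was at 90.7 and 101 FPKM in OGD_Con, against 38.5 and 43.5 FPKM in Con, a log2 difference of 1.20 (SE 0.10, adjusted p = 0.00308). Pgam1, phosphoglycerate mutase, was at 305 and 269.8 FPKM in OGD_Con, against 127 and 143 FPKM in Con, a log2 difference of 1.08 (SE 0.10, adjusted p = 0.00472). Both genes were about as high in OGD_PARP14 replicate 1 as in OGD_Con, at 95.6 FPKM for Eno1 and 270.0 FPKM for Pgam1. In the library labelled OGD_PARP14 replicate 2, Eno1 was at 50.6 FPKM, above the libraries without OGD, and Pgam1 at 96.6 FPKM, below them. Pgk1, phosphoglycerate kinase, had 288 and 314 FPKM in OGD_Con, against 146 and 171 FPKM in Con (log2 difference 0.92, SE 0.12, adjusted p = 0.0102), and its adjusted p was 0.0621 without OGD_Con replicate 2 and 0.0521 without Con replicate 1.

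Pkm, the pyruvate kinase of most tissues outside the liver, had a smaller rise, from a model whose name is joined with a predicted gene. It was at 211 and 226 FPKM in OGD_Con, against 151 and 158 FPKM in Con, a log2 difference of 0.49 (SE 0.08, adjusted p = 0.0163). The adjusted p of Pkm was 0.0813 without OGD_Con replicate 2, 0.0825 without Con replicate 1 and 0.0609 without Con replicate 2. Both OGD_PARP14 libraries lay above both PARP14 libraries for Pkm, at 211 and 227 FPKM, against 134 and 145 FPKM in PARP14. Eno3, the muscle enolase, was at 4.56 and 4.71 FPKM in OGD_Con, against 2.65 and 3.14 FPKM in Con (log2 difference 0.54, SE 0.10, adjusted p = 0.0211). The adjusted p of Eno3 was 0.0745 without OGD_Con replicate 1, 0.0992 without OGD_Con replicate 2, 0.0922 without Con replicate 1 and 0.0501 without Con replicate 2.

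Gapdh, the dehydrogenase between the triose phosphates and Pgk1, was listed at 13.4 and 16.4 FPKM in OGD_Con, against 4.70 and 6.46 FPKM in Con, a log2 difference of 1.28 (SE 0.18, adjusted p = 0.0108). Its adjusted p was 0.0622 without OGD_Con replicate 2. This level was far below those of the neighbouring steps Tpi1 and Pgk1. The mouse genome holds many near-identical processed copies of Gapdh, which can take fragments from the gene, so its level here is uncertain. Processed copies of Aldoa, Eno1 and Ldha exist as well, and the same reserve applies to those genes to an unknown extent.

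Pyruvate leaves the pathway as lactate, and 3 of the 4 genes of making and moving lactate rose. Slc16a3, which encodes the lactate exporter MCT4, was at 22.4 and 18.6 FPKM in OGD_Con, against 1.96 and 1.70 FPKM in Con. It was at 22.0 and 3.98 FPKM in OGD_PARP14, against 1.36 and 1.76 FPKM in PARP14. Every library labelled OGD lay above every library without it, and OGD_PARP14 replicate 2 was the lowest of the OGD libraries. The log2 difference of OGD_Con against Con was 2.92 (SE 0.13, adjusted p = 0.000923), a 7.56-fold rise in FPKM + 1 and the largest of the 23 members called.

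Slc16a1, which encodes the monocarboxylate carrier MCT1, was at 8.23 and 11.3 FPKM in OGD_Con, against 1.11 and 1.05 FPKM in Con, a log2 difference of 2.36 (SE 0.15, adjusted p = 0.00197). In OGD_PARP14 it was at 8.61 and 2.84 FPKM, against 0.922 and 1.17 FPKM in PARP14, and again all libraries labelled OGD were above the others. Ldha, the subunit that favours making lactate, was at 199 and 212 FPKM in OGD_Con, against 73.7 and 83.0 FPKM in Con, a log2 difference of 1.38 (SE 0.10, adjusted p = 0.00245). Its values were 206 and 101 FPKM in OGD_PARP14, against 74.8 and 83.7 FPKM in PARP14. Ldhb, the subunit that favours using lactate, was at 13.4 and 18.4 FPKM in OGD_Con, against 13.2 and 18.1 FPKM in Con. The groups overlapped for Ldhb, with a log2 difference of 0.02 (95% interval -0.56 to 0.61, adjusted p = 0.953), and Ldha made up 93.7% and 92.0% of the pair in OGD_Con, against 84.8% and 82.1% in Con.

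The upstream windows of these lactate genes are shown for the exporter with the largest rise and for the pair of dehydrogenase subunits that parted. The Slc16a3 window spans chr11:120948817-120949066 on the plus strand and holds 2 cores. The Ldha window spans chr7:46845554-46845803 on the plus strand and holds 3. It belongs to the start nearest the deposited model, of 2 that RefSeq lists. Both windows lie before a RefSeq start but inside the deposited models, which begin at chr11:120948480 for Slc16a3 and at chr7:46841475 for Ldha. The Ldhb window at chr6:142507958-142508207 on the minus strand holds 1. Builds and capitals are as above.
Slc16a3: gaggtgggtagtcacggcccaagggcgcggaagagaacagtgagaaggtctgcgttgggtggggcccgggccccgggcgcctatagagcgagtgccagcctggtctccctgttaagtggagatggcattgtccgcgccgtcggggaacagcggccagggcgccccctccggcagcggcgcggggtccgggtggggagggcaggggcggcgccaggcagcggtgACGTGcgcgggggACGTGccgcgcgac
Ldha: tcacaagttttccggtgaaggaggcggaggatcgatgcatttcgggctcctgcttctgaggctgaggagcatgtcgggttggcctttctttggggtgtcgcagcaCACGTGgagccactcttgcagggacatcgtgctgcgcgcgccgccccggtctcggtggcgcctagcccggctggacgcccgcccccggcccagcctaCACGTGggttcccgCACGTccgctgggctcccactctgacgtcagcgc
Ldhb: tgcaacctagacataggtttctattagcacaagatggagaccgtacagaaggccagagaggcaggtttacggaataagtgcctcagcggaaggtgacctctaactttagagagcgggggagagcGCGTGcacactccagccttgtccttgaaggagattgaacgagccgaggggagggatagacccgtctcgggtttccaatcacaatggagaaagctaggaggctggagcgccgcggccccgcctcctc

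**Figure D3:**
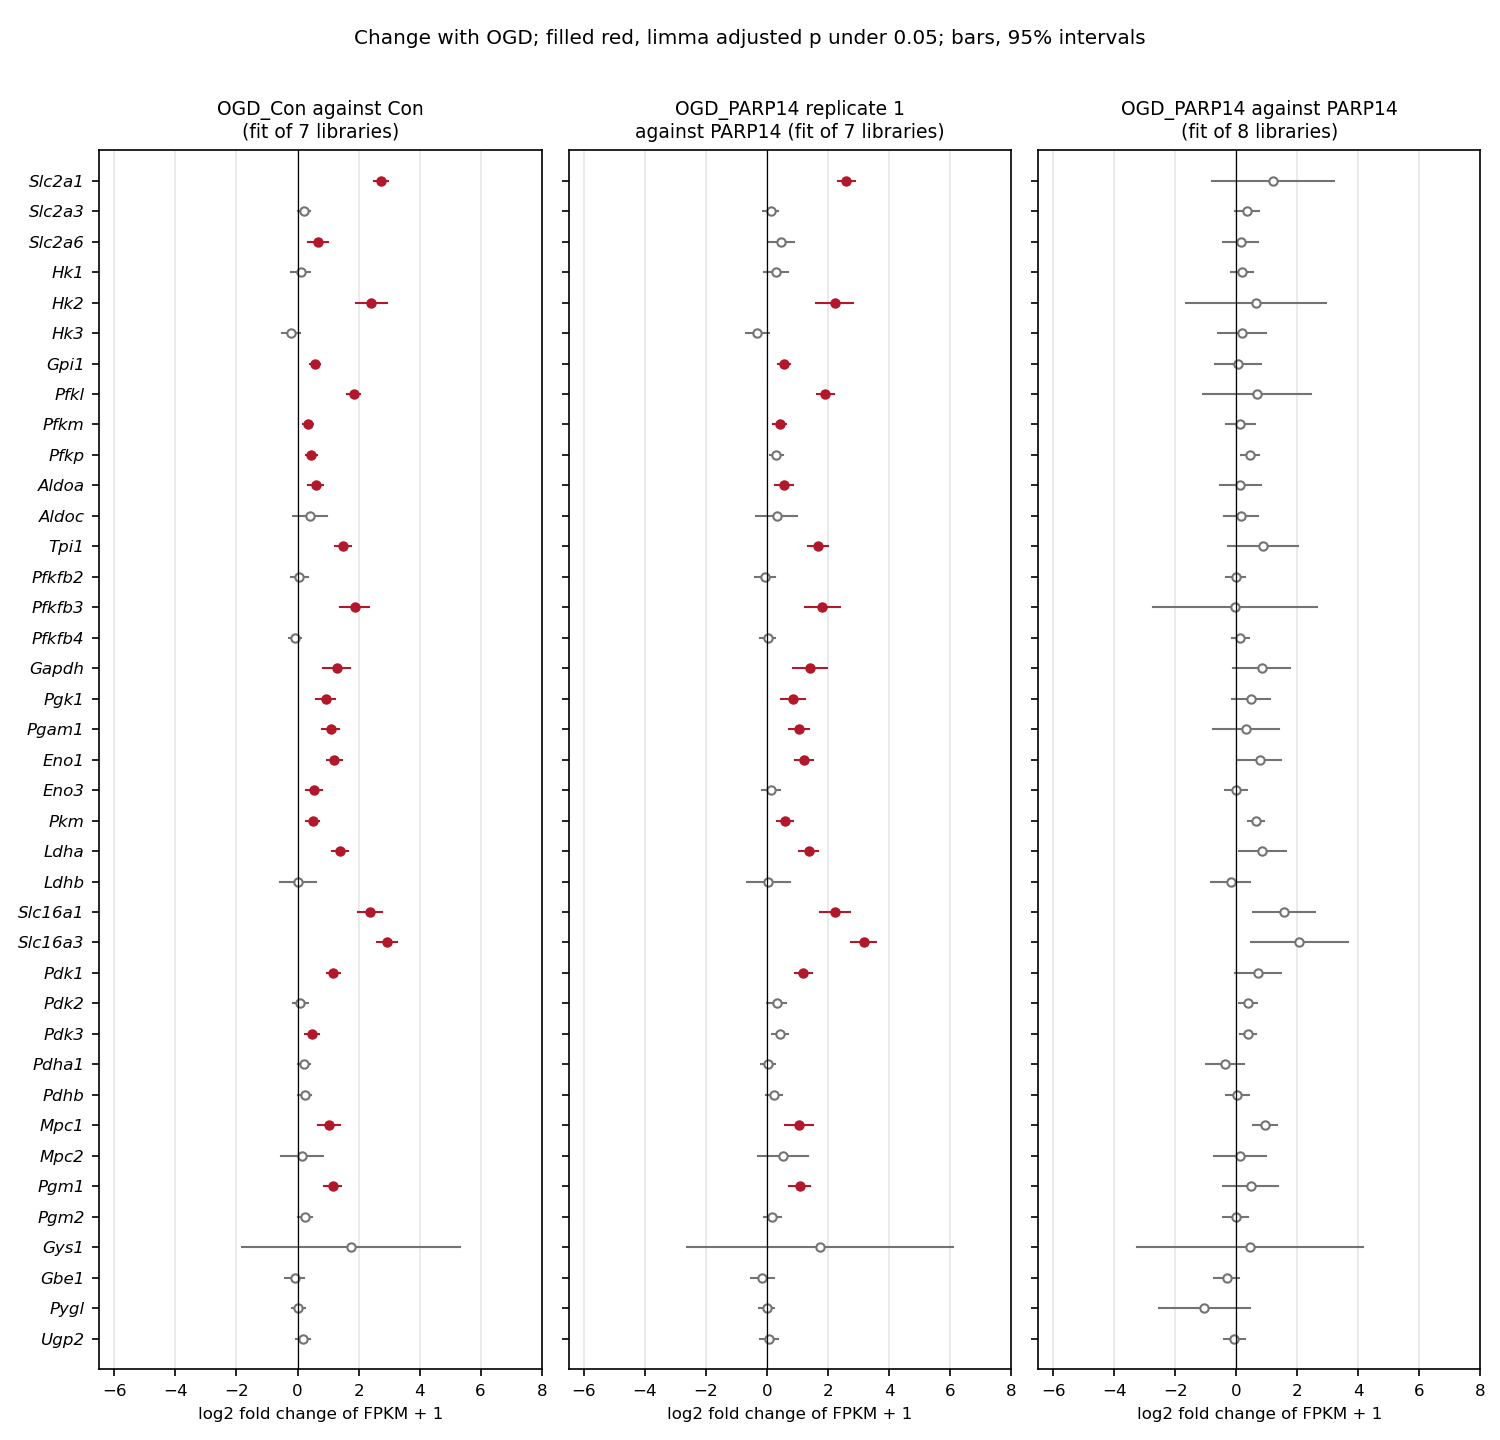
Log2 fold change of FPKM + 1 with its 95% interval for each of the 39 tested genes, for OGD_Con against Con and OGD_PARP14 replicate 1 against PARP14 in the fit of 7 libraries and for OGD_PARP14 against PARP14 in the fit of 8. Filled red points have a limma adjusted p under 0.05: 23 genes in the left panel, 19 in the middle one and 0 in the right one, where the intervals are wide.

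At the entry to mitochondria, 2 of the 3 tested kinases that inhibit pyruvate dehydrogenase and 1 subunit of the pyruvate carrier rose, and the enzyme's own subunits did not pass. Pdk1, the kinase that inactivates pyruvate dehydrogenase under hypoxia, was at 10.4 and 10.5 FPKM in OGD_Con, against 4.01 and 4.16 FPKM in Con, with a log2 difference of 1.17 (SE 0.09, adjusted p = 0.00254). Pdk3, a related kinase, was at 4.51 and 4.81 FPKM in OGD_Con, against 2.90 and 3.25 FPKM in Con, with a log2 difference of 0.47 (SE 0.09, adjusted p = 0.0211). The adjusted p of Pdk3 was 0.0652 without OGD_Con replicate 1, 0.0997 without OGD_Con replicate 2, 0.0974 without Con replicate 1 and 0.0588 without Con replicate 2. Pdk2 was at 3.40 and 2.79 FPKM in OGD_Con, against 2.67 and 3.00 FPKM in Con, and the groups overlapped (adjusted p = 0.536). Pdk1 accounted for 56.9% and 57.9% of the summed FPKM of the kinases in OGD_Con, against 41.8% and 39.9% in Con.

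Mpc1, a subunit of the mitochondrial pyruvate carrier, was at 8.78 and 7.17 FPKM in OGD_Con, against 3.24 and 3.50 FPKM in Con, a log2 difference of 1.03 (SE 0.14, adjusted p = 0.0108). Its adjusted p was 0.0620 without Con replicate 1 and 0.0503 without Con replicate 2. Mpc1 was also high in both OGD_PARP14 libraries, at 9.50 and 8.06 FPKM, against 3.54 and 4.64 FPKM in PARP14. Its partner subunit Mpc2 was at 2.73 and 1.13 FPKM in OGD_Con, against 1.72 and 1.36 FPKM in Con, a spread within OGD_Con wider than that between the groups (adjusted p = 0.711). Pdha1 and Pdhb encode the catalytic subunits of pyruvate dehydrogenase. They had log2 differences of 0.21 (SE 0.07, adjusted p = 0.0935) and 0.23 (SE 0.08, adjusted p = 0.104).

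Among the glycogen genes, read from the models that the rule selects, the one that rose acts at the branch between glycogen and glycolysis. Pgm1, phosphoglucomutase, was at 31.7 and 32.9 FPKM in OGD_Con, against 12.9 and 15.3 FPKM in Con, with no overlap and a log2 difference of 1.15 (SE 0.11, adjusted p = 0.00474). Pygl, the phosphorylase that breaks glycogen down, was at 36.8 and 38.3 FPKM in OGD_Con, against 35.1 and 38.6 FPKM in Con, with a log2 difference of 0.03 (95% interval -0.17 to 0.23, adjusted p = 0.810). Pygl was at 35.8 and 7.71 FPKM in OGD_PARP14, against 35.4 and 36.4 FPKM in PARP14, so that only OGD_PARP14 replicate 2 departed from the other libraries. The remaining tested genes of the step, Pgm2, Ugp2 and the branching enzyme Gbe1, had log2 differences of 0.24, 0.17 and -0.10 and did not pass.

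Gys1, which encodes glycogen synthase, cannot be read from the model that the rule selects. That model at chr7:45445607-45460300 is joined with Ftl1 and a predicted gene, and it was at 55.5 and 7.41 FPKM in OGD_Con, against 3.13 and 9.16 FPKM in Con (log2 difference 1.75, SE 1.40, adjusted p = 0.405). Its 2 OGD_Con libraries differed by more than the group means did, and the overlapping model of the ferritin gene Ftl1 on the other strand was at 4820.4 to 6876 FPKM. A second model carrying the name Gys1 alone, on the same strand, was at 7.08 and 7.90 FPKM in OGD_Con, against 3.60 and 3.76 FPKM in Con. There the groups were apart, with a log2 difference of 0.86 (SE 0.10, adjusted p = 0.00728).

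The other genes of glucose metabolism did not follow the members as a whole. Of 97 such genes listed, 64 were tested, and 10 rose and 7 fell in OGD_Con against Con, with a median log2 difference of 0.02. Of all 11146 tested models, 10.7% rose, 12.4% fell and 4329 had an unadjusted p under 0.05 in limma. Citrate cycle genes numbered 16, and 0 of them passed in limma (1 with an unadjusted p under 0.05), with a median of -0.05. In the pentose phosphate pathway, which makes NADPH, 3 of 8 genes fell and 1 rose. G6pdx, its rate-limiting first enzyme, was at 58.2 and 62.9 FPKM in OGD_Con, against 85.7 and 88.0 FPKM in Con, a log2 difference of -0.51 (SE 0.08, adjusted p = 0.0157). Pgd, the second dehydrogenase, was at 50.8 and 55.2 FPKM in OGD_Con, against 73.3 and 77.1 FPKM in Con (log2 difference -0.50, SE 0.09, adjusted p = 0.0204). Of the other glycolysis isoforms 2 of 4 fell. They were Tigar, a phosphatase that lowers fructose 2,6-bisphosphate (log2 difference -0.55, SE 0.10, adjusted p = 0.0184), and Pgam2, the muscle mutase (log2 difference -0.92, SE 0.14, adjusted p = 0.0121).

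Of the other glycogen genes, 6 of 15 rose and 2 fell. Ppp1r3b, a subunit that brings protein phosphatase 1 to glycogen, was at 9.67 and 10.9 FPKM in OGD_Con, against 2.21 and 2.59 FPKM in Con, a log2 difference of 1.73 (SE 0.12, adjusted p = 0.00212). Epm2a, which encodes the glycogen phosphatase laforin, had a log2 difference of 1.52 (SE 0.14, adjusted p = 0.00401). Pgm2l1, which makes glucose 1,6-bisphosphate, fell, with a log2 difference of -0.88 (SE 0.08, adjusted p = 0.00445). Of the other pyruvate dehydrogenase genes 1 of 6 rose, and their median log2 difference was -0.05. The gene that rose, Pdp1, the phosphatase that reactivates pyruvate dehydrogenase and so opposes Pdk1, was at 18.1 and 15.6 FPKM in OGD_Con, against 1.86 and 1.70 FPKM in Con. Its log2 difference of 2.68 (SE 0.09, adjusted p = 0.000454) was larger than that of Pdk1. Among gluconeogenic genes 1 of 3 rose, Pck2, the mitochondrial phosphoenolpyruvate carboxykinase, with a log2 difference of 1.24 (SE 0.11, adjusted p = 0.00362). In the hexosamine pathway 1 of 5 rose, its first enzyme Gfpt1, with a log2 difference of 0.29 (SE 0.07, adjusted p = 0.0406). None of the 2 other glucose transporters, 2 other lactate genes and 3 polyol and fructose genes passed, and 1 of these 3 last had an unadjusted p under 0.05 in limma. In the fit of all 8 libraries, 0 of the 64 passed in limma, and 11 had an unadjusted p under 0.05. Over all 11146 tested models, 0.161% rose, 0.108% fell and 2144 had an unadjusted p under 0.05 in that fit.

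**Figure D4:**
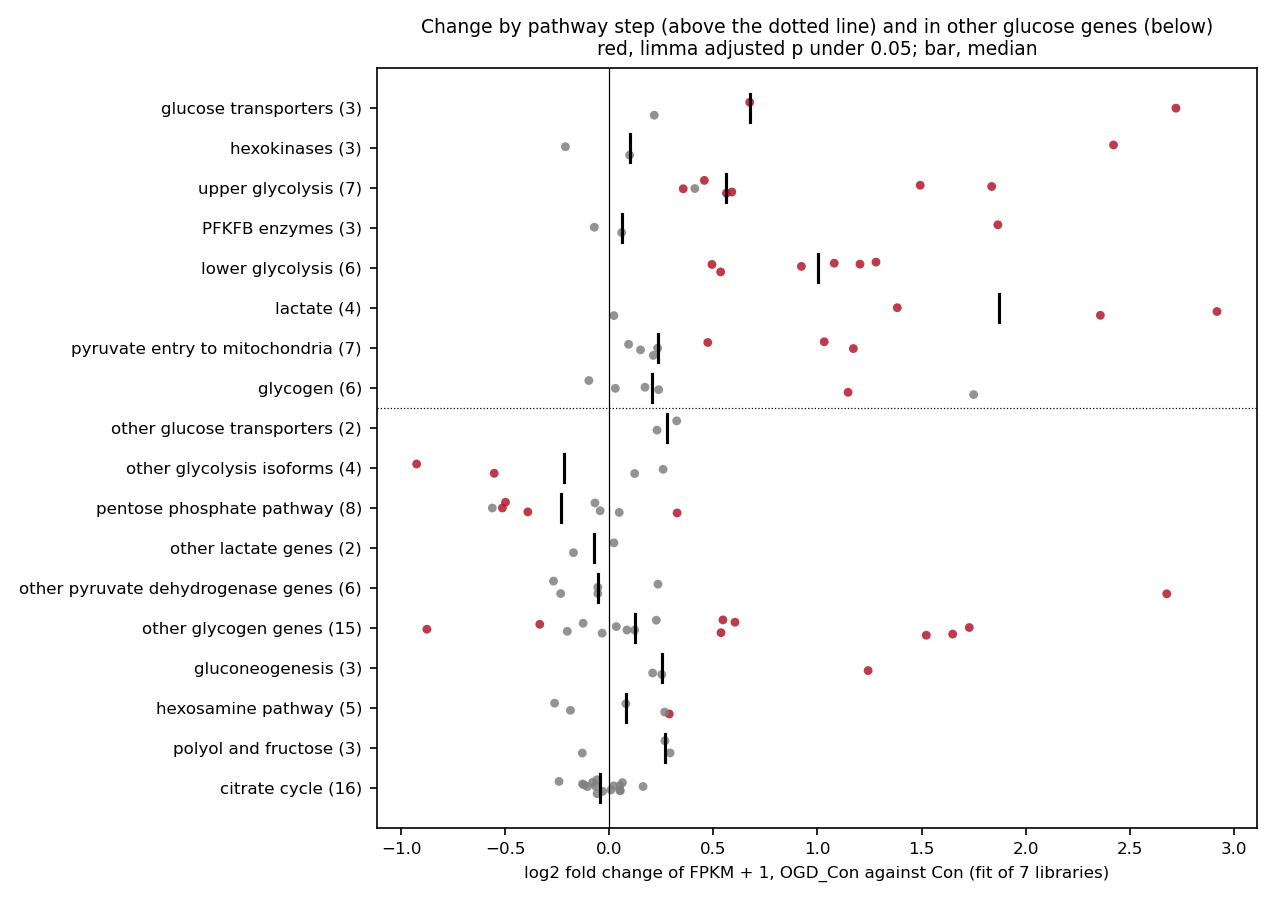
Log2 fold change of FPKM + 1 of OGD_Con against Con for the tested members by pathway step, above the dotted line, and for other genes of glucose metabolism, below it, with the number of genes in brackets. Points are genes, red where the limma adjusted p is under 0.05, and black bars are medians: all 6 lower glycolysis genes are red, and the 16 citrate cycle genes lie close to 0 with none red.

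In the comparison of the libraries labelled OGD_PARP14 with those labelled PARP14, the result depended on which OGD_PARP14 library was read, since replicate 1 was high for most members that rose in OGD_Con and replicate 2 was low for many of them. With both replicates, in the fit of 8 libraries, 0 members passed for OGD_PARP14 against PARP14 by limma, 9 had an unadjusted p under 0.05, and the median log2 difference was 0.31, against -0.07 over all tested models. Of all 11146 tested models, 0.126% rose, 0.0897% fell and 1617 had an unadjusted p under 0.05 by limma in that comparison. Both OGD_PARP14 libraries lay above both PARP14 libraries for 13 members and below for 1, against 14.4% above and 26.5% below over all models. The 13 were Slc2a3, Pfkp, Tpi1, Gapdh, Eno1, Pkm, Ldha, Slc16a1, Slc16a3, Pdk1, Pdk2, Pdk3 and Mpc1. Of these, Slc2a3 passed the filter only through libraries labelled OGD, OGD_PARP14 replicate 2 among them.

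Without OGD_PARP14 replicate 2, 19 members rose and 0 fell, where 5.54% of all tested models rose and 5.17% fell. All 19 were among the 23 members that rose in OGD_Con against Con. The lone OGD_PARP14 library is then assumed to vary like the other groups. Slc16a3 had a log2 difference of 3.17 (SE 0.16, adjusted p = 0.00174), Slc2a1 one of 2.60 (SE 0.11, adjusted p = 0.00133) and Hk2 one of 2.22 (SE 0.24, adjusted p = 0.0103). Ldha, at 1.37 (SE 0.12, adjusted p = 0.00706), and Pfkl, at 1.92 (SE 0.11, adjusted p = 0.00234), were also close to their differences in OGD_Con against Con. Across the 39 members, the differences of OGD_PARP14 replicate 1 from the PARP14 mean and those of OGD_Con from Con had a Pearson correlation of 0.986 across genes. These comparisons share no libraries, genes are not independent replicates, and this value is a description.

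Without OGD_PARP14 replicate 1 instead, the comparison rested on the library that stood apart. Then 8 members were called higher and 6 lower, where 10.9% of all tested models were higher and 20.5% lower. Slc16a3 and Slc16a1 were still higher, with log2 differences of 0.97 (adjusted p = 0.0100) and 0.91 (adjusted p = 0.0199). Hk2 (log2 difference -0.93, adjusted p = 0.0383), Pfkl (-0.57, adjusted p = 0.0142), Gpi1 (-0.46, adjusted p = 0.0116) and Pfkfb3 (-1.90, adjusted p = 0.00402) were lower instead of higher. Pygl and Pdha1, which did not pass for OGD_Con against Con, were lower as well, with log2 differences of -2.08 and -0.78. Across the 39 members, the correlation with the differences of OGD_Con from Con was 0.0192.

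The position of OGD_PARP14 replicate 2 differed from gene to gene. For 29 members the 3 other OGD libraries lay above all 4 libraries without OGD, where 22.1% of all models did, and for 1, Hk3, they lay below, as for 26.7% of all models. Among these 29, replicate 2 was below the 3 OGD libraries for 25, above them for 3 and between them for 1. Set against the 4 libraries without OGD, it was above for 11, below for 14 and among them for 4. The 29 were picked by high values in the 3 other OGD libraries, which by itself favours a place of replicate 2 below those. No share over all models was taken under the same condition, so these counts cannot be called particular to the members. Replicate 2 had the lowest value of all 8 libraries for 17 of the 39 members and the highest for 6, against 38.5% and 20.7% of all tested models. Over all members its median lay 0.77 below the mean of the other OGD libraries on the log2 scale, against 0.10 below over all models. Its median also lay 0.12 below the mean of the libraries without OGD, as over all models. For Tpi1, Eno1, Ldha, Slc16a1, Slc16a3, Pdk1 and Pdk3 it lay between the groups, above the 4 libraries without OGD and below the 3 with it. The summed microglial markers were highest in this library and its Egln3 was low, and their part in these values was not tested.

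**Figure D5:**
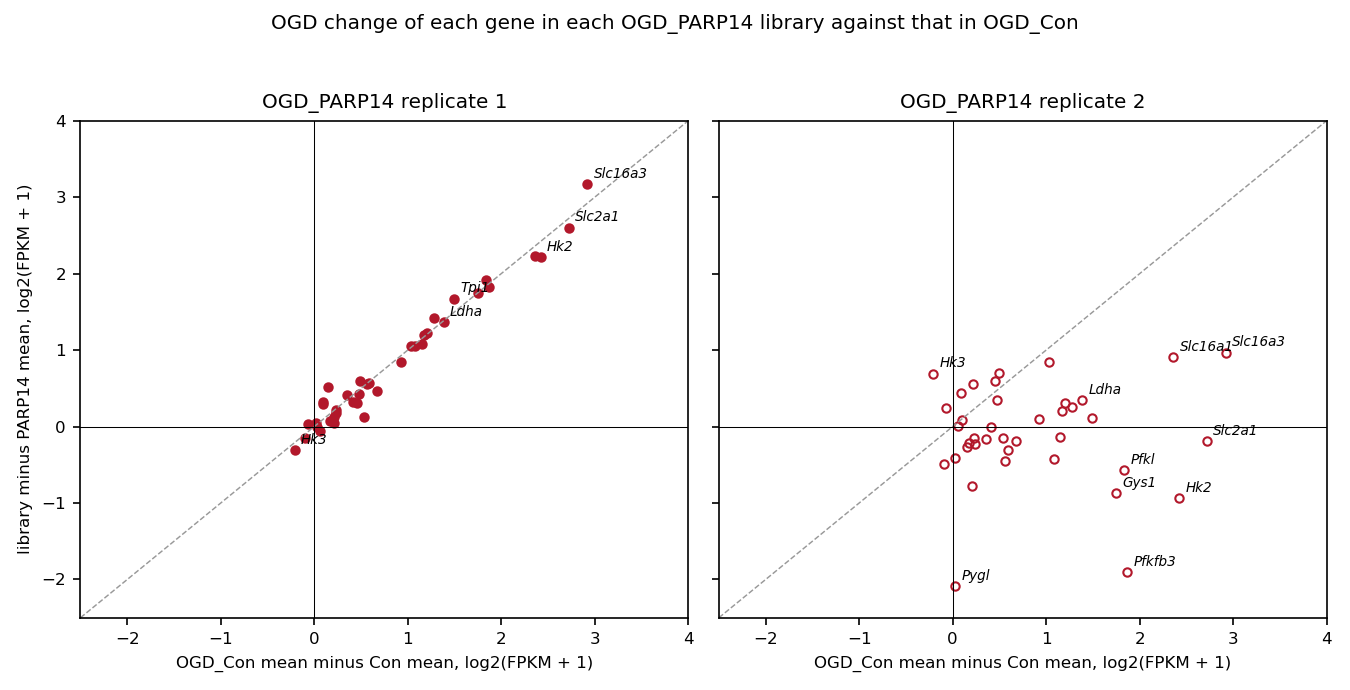
Difference of each OGD_PARP14 library from the PARP14 mean, on the y axis, against the difference of OGD_Con from Con, on the x axis, both on the log2(FPKM + 1) scale, with 39 genes in each panel and the dashed line at equality. Replicate 1 (left, filled) follows the line with r = 0.986, and replicate 2 (right, open) does not, with Hk2, Pfkl and Pfkfb3 below 0.

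The libraries were also compared by plasmid label, with and without OGD. Without OGD, 0 of 39 members passed for PARP14 against Con by limma, and 0 had an unadjusted p under 0.05. Their median log2 difference was 0.02. Of all 11146 tested models, 0.0269% rose, 0.0269% fell and 332 had an unadjusted p under 0.05. For Slc2a1 the log2 difference was 0.03 (95% interval -0.20 to 0.26), for Hk2 -0.02 (-0.51 to 0.48) and for Slc16a3 -0.15 (-0.48 to 0.18). The intervals of the 39 members had a median half-width of 0.25. For a member with an interval of that width, a smaller difference could not be told from 0 by its interval, which is not adjusted for the number of models tested. The libraries labelled PARP14 lay above both labelled Con for 3 members and below for 5, against 12.4% and 15.0% of all models. The Parp14 model goes against these labels, so no direction of Parp14 activation can be attached to these values.

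Under OGD, the Parp14 model also differed between the OGD_Con libraries. In the fit of 8 libraries by limma, 0 members passed for OGD_PARP14 against OGD_Con, against 0.0% of all tested models in each direction. An unadjusted p under 0.05 in limma was found for 387 of the 11146 tested models and for 1 member. That member was Eno3, with a log2 difference of -0.51 (95% interval -0.86 to -0.16, adjusted p = 0.571). The intervals for the strongly OGD-responsive genes were wide in this fit, from -3.48 to 0.51 for Slc2a1 and from -4.08 to 0.49 for Hk2. Without OGD_PARP14 replicate 2, again 0 members passed in limma and 1 had an unadjusted p under 0.05, where 0.0628% of all models rose and 0.0359% fell. The intervals were then -0.38 to 0.19 for Slc2a1, -0.83 to 0.39 for Hk2 and -0.31 to 0.31 for Ldha. Without OGD_PARP14 replicate 1, 24 members were lower and 3 higher than in OGD_Con, where 26.0% of all models were lower and 15.8% higher. OGD_PARP14 libraries lay below both OGD_Con libraries for 11 members and above for 1, against 19.2% and 13.4% of all models.

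The test of whether the OGD response itself differed between the plasmid labels, the interaction term, passed for 0 members in the fit of 8 libraries and 0 in the fit of 7. In the fit of 8, 1 member had an unadjusted p under 0.05 by limma, as did 211 of the 11146 tested models. Over all tested models, 0.00897% had a larger and 0.0% a smaller difference under the PARP14 labels in the fit of 8, against 0.0359% and 0.0449% in the fit of 7. The median interaction of the members was -0.45 in the fit of 8 libraries and -0.03 in the fit of 7. In the fit of 7, the interval of the interaction was -0.49 to 0.24 for Slc2a1, -0.27 to 0.77 for Slc16a3 and -0.42 to 0.38 for Ldha. Without OGD_PARP14 replicate 1, the interaction was called lower for 21 members and higher for 1, against 18.5% and 11.1% of all models. Since the Parp14 levels go against the labels PARP14 and Con and differ within OGD_Con, these values and those under OGD say nothing of the direction of Parp14 activation.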

How the data were processed

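Poly(A) RNA of primary mouse microglia was made into stranded dUTP libraries with unique molecular identifiers and sequenced in pairs, per the labels' protocols. Per the submitters' processing notes, HISAT, StringTie, edgeR and the build mm9 were used, with no versions given. The table deposited by the authors holds FPKM for 54419 gene models in 1 column per library, and no fragment counts were used. Fragments of overlapping genes and of near-identical copies can be divided among models in such estimates. Of 39015 Ensembl models, 37538 (96.2%) carry the coordinates of GENCODE M21, built on GRCm38, so coordinates are given as deposited.

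Each member was taken from the model whose name, split at joins, holds its symbol, and of several models the one with the highest mean; 2 of the 39 tested members come from joined models. Values were used as log2(FPKM + 1), and fold changes are on that scale, which understates changes of low genes. limma 3.58.1 in R 4.3.3 fitted the 4 group means over the 11146 named models with at least 1 FPKM in at least 2 libraries. Calls are Benjamini-Hochberg adjusted p under 0.05 over all of them, and 95% intervals and SEs are the moderated ones. OGD_Con against Con and PARP14 against Con were fitted without OGD_PARP14 replicate 2, which belongs to neither group. The other comparisons were fitted on all 8 libraries, and each comparison was repeated on the other set of libraries. The step between the lowest FPKM values of a library gave an estimated depth of 13.4 M to 17.0 M fragments. A model 1 kb long with 1 FPKM thus rests on 13 to 17 fragments.

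Members are named by the list, and other glucose genes from those with the lowest p per list among the calls for OGD_Con against Con. The members, lists and library sets were chosen with earlier results of these data known. Alternatives were leaving out each library, other pseudocounts, filters and scalings, an intensity trend, the replicate number as a block, and the gene model that carries a member's name alone. As a check of the code, the fit was run on simulated data with known shifts. The simulated libraries varied independently and none stood apart, so this run says nothing of those limits of the real libraries.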

Additional observations from a re-analysis of the deposited data

How the results depend on the processing

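For OGD_Con against Con, 0 members were called, and 0 called higher, in the fit of all 8 libraries, and 14 to 23 when 1 library was left out. The number called stayed between 20 and 24 under the other settings, which were pseudocounts of 0.1 and 5, no filter and a filter at 5 FPKM, median centring, quantile normalization, an intensity trend, a fit of the compared libraries alone, the replicate block and the exact-name gene model. For this comparison, the share of all tested models was not set beside these counts or those with 1 library left out. With 1 library left out, the members called for OGD_PARP14 against PARP14 ranged from 0 to 19, with 0 to 19 called higher and 0 to 6 called lower. In that comparison the log2 differences ranged from -0.93 to 2.22 for Hk2, from -0.46 to 0.56 for Gpi1, from -0.57 to 1.92 for Pfkl and from -1.90 to 1.82 for Pfkfb3, the signs being set by which OGD_PARP14 library was left out. For OGD_PARP14 against OGD_Con, leaving out 1 library gave 0 to 27 members called, 0 to 3 higher and 0 to 24 lower. For the interaction it gave 0 to 22 called, 0 to 1 higher and 0 to 21 lower. The replicate block called 24 members for OGD_Con against Con, with Aldoc added (adjusted p = 0.0351 in limma, against 0.221 without the block), and changed no other call of a member in that comparison. Deviations of same-numbered libraries correlated at 0.0136 to 0.124, all above 0 but not all above 0.1, so whether the numbers mark a shared experiment could not be settled. With 2 libraries per group, the members had a median interval half-width of 0.25 on the log2 scale in the fit of 7 libraries for OGD_Con against Con. A difference smaller than a member's own half-width could not be told from 0 by its interval. The cause of the distance of OGD_PARP14 replicate 2 from the other libraries was not tested.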
